A study of Mus musculus with 16 samples.

Results

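The comparison described here was between islets of mice on a high-fat diet (HFD) that had received a virus carrying B7-H4 and islets of HFD-fed mice that had received a control virus. It comprised 8 of the 16 RNA libraries of the series, 4 from the B7-H4 virus group (OE1 to OE4) and 4 from the control virus group (Ctrl1, Ctrl2, Ctrl3 and Ctrl5), taken by their labels. Mice aged 6 weeks were put on HFD for 8 weeks. Virus was then infused into the pancreatic duct, either an adeno-associated virus (AAV2/8) that drives B7-H4 and the green marker ZsGreen from the rat Ins2 promoter or the control virus AAV2/8-Ctrl, and islets were collected 5 weeks after that. The recipients are named in the methods as Flox mice, that is B7-H4 fl/fl without Cre, of C57BL/6J background, but as wild type, with a vector called AAV8, in the design text deposited with the series. HFD and viral infusion were common to both groups. The rat Ins2 promoter restricts the transgene to cells that can use it, chiefly β cells. The sources used here do not say whether a library came from 1 mouse or from pooled mice, so p-values measure the spread between these libraries, which may be partly technical. The other 8 libraries of the series, 4 from chow-fed Flox mice and 4 from chow-fed B7-H4 cKO mice, in which Cre under the rat insulin promoter deletes the floxed exon in β cells, are used below only to show levels.

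B7-H4, the product of Vtcn1, belongs to the B7 family of immune checkpoint ligands and restrains T-cell activation through a receptor that is not settled. Pancreatic islets contain β cells, which make insulin, with smaller numbers of α, δ, PP and ghrelin cells, and are penetrated by capillaries, autonomic nerve fibres, stromal cells and resident macrophages. They are embedded in acinar tissue, whose digestive-enzyme transcripts are so abundant that a little carried-over acinar tissue takes up a large part of the RNA. Because FPKM (fragments counted for a gene, divided by its length and by the total of the library) is a share of a library, such carry-over lowers the FPKM of every other gene.

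The labelled tissue was borne out by the islet hormones in all 8 libraries, but the purity of the control preparations varied widely. A list of 33 acinar genes, among them Cpa1 (carboxypeptidase A), was examined first. Values are given throughout in the order Ctrl1, Ctrl2, Ctrl3 and Ctrl5, then OE1 to OE4. The acinar list held 5.9, 61.6, 80.8 and 2.33% of summed FPKM in the Ctrl libraries and 15.5, 12.8, 13.8 and 11.9% in the OE libraries. Ins1 and Ins2, the insulin genes, were both lowest in the acinar-rich Ctrl2 and Ctrl3. Ins2 was 253900, 108100, 27350 and 181800 FPKM in Ctrl and 244300, 234700, 225900 and 250500 FPKM in OE, and Ins1 was 99500, 34660, 6888 and 68260 FPKM in Ctrl and 81620, 87390, 81440 and 97450 FPKM in OE. Ctrl5 differed from every other library in a second way, since Gcg, the α-cell hormone, was 23090, 3470, 889 and 91440 FPKM in Ctrl and 30840, 25850, 28160 and 26960 FPKM in OE. The 4 OE values of Gcg therefore lay inside the range of the Ctrl values. In these bulk samples, fewer cells of a type and less RNA per cell cannot be told apart.

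**Figure D1:**
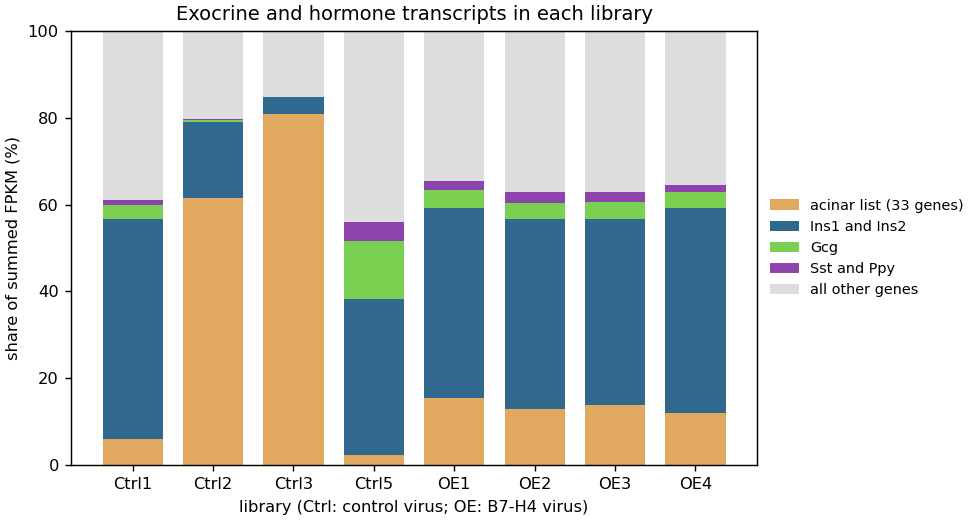
Stacked bars give the share of each library's summed FPKM (percent, vertical axis) held by the acinar list, by Ins1 and Ins2, by Gcg and by Sst and Ppy, with all other genes in grey. The 4 OE libraries sit between 11.9% and 15.5% acinar, while the 4 Ctrl libraries run from 2.33% to 80.8%.

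The OE libraries resembled each other far more than the Ctrl libraries did. Over the 12132 genes averaging 0.5 FPKM or more in these 8 libraries, the median SD within a group, on log2(FPKM + 0.5), was 0.896 for Ctrl and 0.115 for OE. The root-mean-square difference between 2 libraries was 0.208 to 0.324 within OE and 0.545 to 1.96 within Ctrl. Each library was therefore also divided by its median-of-ratios factor, the median over genes of its ratio to the geometric mean of the 8 libraries. Genes were tested, and called genes are given, with and without that scaling. Counts of list members at an unadjusted p under 0.05 are mostly given after scaling alone, and most single genes as deposited FPKM. After scaling the median SD was 0.329 for Ctrl and 0.11 for OE, and the SD of Ctrl remained the larger for 91.8% of genes. Over all genes tested, scaling also moved the median of the log2 fold changes from 0.44 to -0.004, so a deposited fold change is best read against the first of these values. The factor removes a shift common to all genes, not the acinar transcripts themselves.

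Few genes passed the study's thresholds in the fits used here, and, besides Vtcn1, those that rose are known from ghrelin cells and peripheral neurons. The study reported far more genes at those thresholds, most of them lower, from fewer libraries per group and by its own pipeline. Vtcn1 itself, Ghrl (the precursor of ghrelin), Prph (peripherin, a neuronal intermediate filament protein) and Vip (vasoactive intestinal peptide) rose in OE with and without scaling. Called means here that limma, a moderated linear model fitted to all genes, gave an adjusted p below 0.05 together with a log2 fold change beyond 1 in either direction. On the deposited values 4 genes were called higher and 0 lower, which is 0.033% and 0% of the 12132 genes tested. At an unadjusted p under 0.05, limma gave 677 genes higher (5.58%) and 101 lower (0.833%) on those values. After scaling 5 were called higher and 1 lower, which is 0.0412% and 0.00824%. Without the fold minimum these were 6 higher (0.0495%) and 1 lower. The additional called genes were Htr3a, a subunit of the serotonin-gated ion channel, and Adap2, a GTPase-activating protein that binds phosphoinositides. A count that needs no model, of genes whose 4 OE values all lay above or all below the 4 Ctrl values, gave 681 genes higher (5.61%) and 117 lower (0.964%) as deposited. After scaling it gave 1435 higher (11.8%) and 812 lower (6.69%). With and without scaling, 480 genes (3.96%) lay higher and 74 (0.61%) lower. The counts depended on which controls were used, a setting added after the values were seen. Against Ctrl1 and Ctrl5 alone, 115 genes were called higher and 304 lower after scaling (81 and 568 as deposited), and against Ctrl2 and Ctrl3 alone 368 higher and 865 lower (7154 and 278 as deposited). For uncalled genes, adjusted p-values below are those of limma after scaling; on deposited values each was at least 0.591, Htr3a apart.

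**Figure D2:**
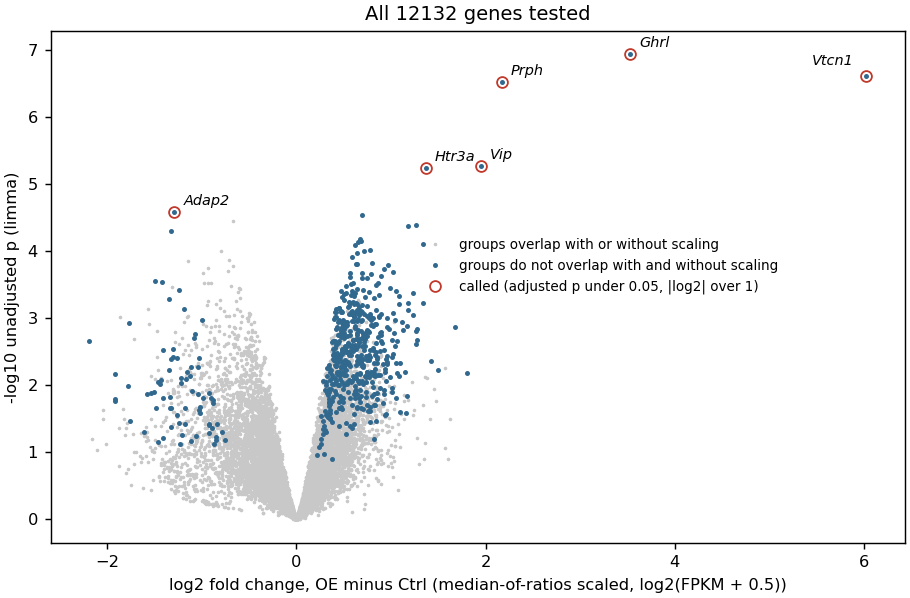
Each point is 1 of the 12132 genes tested, with its log2 fold change of OE minus Ctrl after scaling (horizontal axis) against −log10 of its unadjusted limma p (vertical axis). The 6 called genes are ringed and named, and genes whose groups did not overlap with and without scaling are blue; Vtcn1 lies at 6.02 and Adap2 at -1.29 on the horizontal axis.

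Because the virus delivers B7-H4, Vtcn1 was examined first as a check of the labels. Vtcn1 (chromosome 3, 100825459 to 100896922 in RefSeq's annotation of GRCm38) was 0.0636, 0.371, 0.349 and 0.284 FPKM in Ctrl and 40.01, 128, 74.2 and 60.5 FPKM in OE. Every OE library was far above every Ctrl library, and the OE libraries themselves spanned from OE1 at the bottom to OE2 at the top. Some genes are also given in steps, which approximate fragment numbers. After relative depth was allowed for, the lowest value of a gene was divided by the smallest whole number that put its other low values within 0.06 of a whole number of steps, so the step was fitted and not observed. Vtcn1 amounted to 3, 20, 17 and 13 steps in Ctrl and 2231, 7010, 4371 and 3361 in OE. The log2 fold change was 6.53 ± 0.46 (SE) as deposited and 6.02 ± 0.41 (SE) after scaling, with adjusted p-values of 5.48e-08 and 0.00122 by limma. Transcript from the virus and from the mouse gene cannot be told apart in a per-gene value. In the chow-fed libraries Vtcn1 was at most 0.216 FPKM.

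The promoters of the 3 other genes that were called on deposited values are shown because all were called higher in OE. Each sequence is the 250 bases before the RefSeq transcription start, written 5′ to 3′ on the strand of the gene (build GRCm38.p6). Capitals mark the core of the TATA box, TATAA, searched on the strand of the gene, and TGACG, the half-site bound by cyclic AMP response factors, searched on both strands; no 2 of these matches overlapped. Ghrl lies at chr6:113719912-113720161 on the minus strand (the most upstream of 4 listed starts), Prph at chr15:99054924-99055173 and Vip at chr10:5638968-5639217, the last 2 on the plus strand.
Ghrl: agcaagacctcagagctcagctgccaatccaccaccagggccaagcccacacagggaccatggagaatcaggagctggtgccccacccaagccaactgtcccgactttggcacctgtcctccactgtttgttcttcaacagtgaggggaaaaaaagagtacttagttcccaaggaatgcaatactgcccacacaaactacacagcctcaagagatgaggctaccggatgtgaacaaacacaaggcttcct
Prph: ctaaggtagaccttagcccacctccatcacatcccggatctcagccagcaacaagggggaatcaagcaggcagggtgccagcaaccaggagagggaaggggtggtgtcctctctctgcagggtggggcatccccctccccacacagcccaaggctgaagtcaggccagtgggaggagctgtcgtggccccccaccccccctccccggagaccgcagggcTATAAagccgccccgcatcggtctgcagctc
Vip: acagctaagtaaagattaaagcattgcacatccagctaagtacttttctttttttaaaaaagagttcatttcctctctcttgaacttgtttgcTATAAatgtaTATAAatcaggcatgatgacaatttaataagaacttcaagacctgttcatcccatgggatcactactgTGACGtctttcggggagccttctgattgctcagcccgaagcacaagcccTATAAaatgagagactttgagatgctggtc

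The Vip window held TGACG at -79 to -75 from the start, read on the strand of the gene, and TATAA at 3 places, the nearest at -30 to -26. The Prph window held TATAA at -31 to -27 and no TGACG. Neither string of letters was found in the Ghrl window. For Prph and Vip the span of the gene in RefSeq's annotation (chromosome 15, 99053579 to 99058978, and chromosome 10, 5639193 to 5647617) begins upstream of the start at which the window was placed, so the windows stand for the 1 start listed for each. Among 32817 RefSeq windows of 250 bases, 17.7% held TGACG on either strand and 16% held TATAA on the strand of the gene. The longer string TGACGTC, which the Vip window also holds, was in 2.78% of windows, on either strand.

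Ghrl had the largest log2 fold change after Vtcn1 among the called genes, on the log2(FPKM + 0.5) scale. Ghrelin is made by a scarce islet cell type and in larger amounts by the stomach, and it restrains insulin release. Ghrl was 0.417, 0.0522, 0 and 0.246 FPKM in Ctrl and 9.98, 8.55, 9.39 and 5.47 FPKM in OE. The lowest OE value, in OE4, was more than 10 times the highest Ctrl value, in Ctrl1. They amounted to 7, 1, 0 and 4 steps in Ctrl and 198, 167, 197 and 108 in OE, and no Ctrl library exceeded 7 steps. The log2 fold change was 3.71 ± 0.39 (SE) as deposited and 3.53 ± 0.22 (SE) after scaling, with adjusted p-values of 3.52e-05 and 0.00122 by limma. Mboat4, the enzyme that acylates ghrelin and a second defining marker of ghrelin cells, did not follow it, at 0.0175, 0.183, 0.0169 and 0 FPKM in Ctrl and 0, 0.030, 0.014 and 0 FPKM in OE, with its highest value in Ctrl2. Of the 10 genes of the ghrelin-cell list 6 passed the filter on low values, Ghrl only through its level in OE, and Ghrl was the 1 called. Of all genes tested, 0.033% were called higher as deposited and 0.0412% after scaling. Over all 10, 2 had every OE value above every Ctrl value with and without scaling and 0 the reverse. The shares among all genes in the table were 3.52% and 0.716%. Besides Ghrl, the other of the 2 was below the filter and not tested. Pcsk1, the prohormone convertase that processes several peptide hormones, was 109, 35.1, 9.75 and 73.5 FPKM in Ctrl and 99.5, 89.2, 94.5 and 79.2 FPKM in OE, and the groups overlapped. In the separately normalised chow-fed libraries, which can be set beside these values but not tested against them, Ghrl was 1.96, 4.69, 1.21 and 1.93 FPKM in Flox and 0.755, 0.292, 7.62 and 0.842 FPKM in cKO. Those values are in the order Flox16, Flox17, Flox20 and Flox21, then cKO8, cKO9, cKO12 and cKO38. The chow-fed libraries spanned most of the gap between Ctrl and OE, and cKO12 reached the OE range.

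Prph and Vip, both products of peripheral neurons, formed the second theme. Prph was 0.135, 0.0132, 0 and 0 FPKM in Ctrl and 2.0, 2.39, 1.99 and 2.83 FPKM in OE, and Vip was 0.147, 0, 0 and 0 FPKM in Ctrl and 1.35, 2.83, 1.86 and 1.6 FPKM in OE. Neither gene had a Ctrl value near the OE range; 2 Ctrl libraries were listed at 0 for Prph and 3 for Vip. Prph amounted to 9, 1, 0 and 0 steps in Ctrl and 157, 185, 165 and 221 in OE, and Vip to 7, 0, 0 and 0 steps in Ctrl and 76, 157, 111 and 90 in OE. For Prph the log2 fold change was 2.38 ± 0.32 (SE) as deposited and 2.17 ± 0.15 (SE) after scaling, with adjusted p-values of 0.00115 and 0.00122 by limma. For Vip it was 2.14 ± 0.32 (SE) as deposited and 1.95 ± 0.19 (SE) after scaling, with adjusted p-values of 0.00538 and 0.0139. The constant of 0.5 added before taking logarithms understates the fold of genes this low. For each of the called genes, all 4 OE values lay on 1 side of all 4 Ctrl values.

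Htr3a and Adap2 passed the threshold only after scaling. Htr3a (chromosome 9, 48899213 to 48911152 in GRCm38) is expressed by peripheral neurons and also by β cells, where it takes part in the adaptation to pregnancy. It was 0.0325, 0, 0 and 0.0168 FPKM in Ctrl and 0.895, 0.993, 1.21 and 0.885 FPKM in OE, or 2, 0, 0 and 1 steps in Ctrl and 65, 71, 93 and 64 in OE. Its log2 fold change was 1.54 ± 0.29 (SE) as deposited and 1.37 ± 0.14 (SE) after scaling, with adjusted p-values of 0.0834 and 0.0139 by limma. Adap2 (chromosome 11, 80154044 to 80178827) was 2.65, 1.22, 0.997 and 3.34 FPKM in Ctrl and 0.64, 0.80, 0.855 and 0.657 FPKM in OE, and after scaling 1.83, 1.88, 2.95 and 2.27 in Ctrl and 0.539, 0.655, 0.688 and 0.542 in OE. As deposited its highest values were in Ctrl1 and Ctrl5, and after scaling in Ctrl3 and Ctrl5, with every OE value below every Ctrl value on both scales. The log2 fold change was -0.94 ± 0.38 (SE) as deposited and -1.29 ± 0.16 (SE) after scaling, with adjusted p-values of 0.591 and 0.0497. Cog7, a subunit of the Golgi complex that tethers vesicles, had an adjusted p of 0.0497 by limma after scaling, but a log2 fold change of 0.70 ± 0.086 (SE), short of the fold threshold. Cog7 was 24.2, 11, 4.9 and 23.1 FPKM in Ctrl and 31.3, 31.7, 32.7 and 31.3 FPKM in OE.

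The calls did not all survive the omission of a library. Vtcn1, Ghrl and Prph were called with each of the 8 libraries left out in turn, on deposited and on scaled values, with adjusted p-values up to 0.0187 by limma. Vip was called in all 8 settings on deposited values, but after scaling it was lost without Ctrl1, without Ctrl5, without OE3 or without OE4, with adjusted p-values up to 0.139. On deposited values it was also lost when limma was run without the trend and robust options, at an adjusted p of 0.102. Htr3a fell below the filter of 0.5 FPKM whenever an OE library was left out, and after scaling its call was lost without Ctrl1, at an adjusted p of 0.0508. Adap2 was called after scaling only without Ctrl2 or without Ctrl3, and lost its call in the other 6 settings, with adjusted p-values up to 0.261. Against the acinar-poor pair Ctrl1 and Ctrl5 alone, and against the acinar-rich pair Ctrl2 and Ctrl3 alone, the log2 fold changes after scaling were 3.52 and 3.58 for Ghrl, 2.38 and 2.08 for Prph, and 2.12 and 1.88 for Vip. For Htr3a they were 1.56 and 1.28, and for Adap2 -1.29 and -1.32. Because the groups did not overlap for any of these genes, their direction against either pair adds nothing to the calls.

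**Figure D3:**
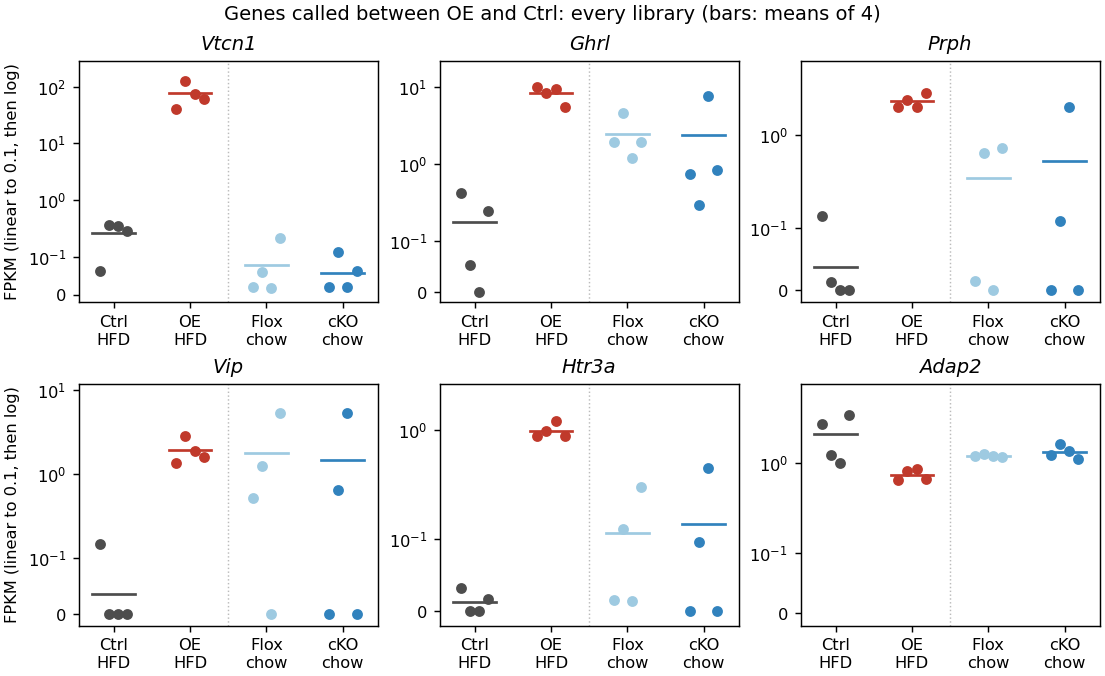
Each panel gives FPKM (vertical axis, linear up to 0.1 and logarithmic above) of 1 called gene in every library, with bars at group means; Ctrl and OE come from 1 table and the chow-fed Flox and cKO libraries from another, normalised separately. Vtcn1 is high in OE alone, whereas Vip reaches 5.28 FPKM in 1 cKO library and 5.23 FPKM in 1 Flox library.

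Some other genes listed for peripheral neurons also lay higher in OE. Islets receive sympathetic and parasympathetic fibres, and small ganglia lie beside them in the pancreas. Of 30 listed neuronal genes in the table, 15 passed the filter on low values, 2 were called with and without scaling, and at an unadjusted p under 0.05 after scaling 9 higher and 0 lower, beside 13.3% and 9.45% of all genes tested. The median log2 fold change of those tested was 1.44 as deposited and 0.91 after scaling. Members that pass the filter through 1 group alone, as Prph and Vip do, inflate such a median and the counts of tested members. Over all 30, 16 had every OE value above every Ctrl value with and without scaling and 0 the reverse, beside 3.52% and 0.716% of all 17318 genes in the table. The list was drawn up when the behaviour of Prph and Vip was known, and its counts include both. Some of its members, such as Th, Npy, Ret and Uchl1, are also expressed by mouse endocrine cells. Tubb3, neuronal β-tubulin, was 13.9, 6.72, 0.982 and 16.6 FPKM in Ctrl and 24.3, 30.7, 25.7 and 23.6 FPKM in OE, and Npy, a cotransmitter of sympathetic neurons, was 13.5, 3.93, 1.16 and 13.8 FPKM in Ctrl and 24.6, 16.9, 21.2 and 18.8 FPKM in OE. Both had groups that did not overlap, and neither was called, with adjusted p-values of 0.0964 and 0.0842 after scaling by limma. In the chow-fed libraries Tubb3 was highest in Flox20 (18.5 FPKM), where Prph and Vip were 0, and next in Flox21 (17.1 FPKM).

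Below the filter, 10 of the 15 untested members also had OE values wholly above Ctrl values, and some are named here after their values were seen. Slc18a3, the vesicular acetylcholine transporter, was 0, 0, 0 and 0 FPKM in Ctrl and 0.594, 0.628, 0.753 and 0.788 FPKM in OE, and Nefl, the light neurofilament, was 0, 0, 0 and 0 FPKM in Ctrl and 0.407, 0.517, 0.626 and 0.469 FPKM in OE. Both were listed at 0 in all 4 Ctrl libraries. Chrna3, the ganglionic nicotinic receptor subunit, amounted to 4, 0, 0 and 0 steps in Ctrl and 68, 77, 98 and 62 in OE. The noradrenaline-synthesising enzyme Dbh was at or near 0 everywhere, at most 0.0255 FPKM. The summed level of the list was 0.00855 to 0.0161% of FPKM in Ctrl and 0.0206 to 0.0234% in OE. Schwann cells, the glia of nerve fibres, showed no single direction. Of 9 tested, 3 higher and 1 lower reached an unadjusted p under 0.05 after scaling (13.3% and 9.45% of all genes), and the median was 0.17 as deposited and -0.073 after scaling. Mbp, a myelin gene, was 3.04, 1.27, 0.625 and 2.37 FPKM in Ctrl and 3.29, 4.25, 3.87 and 4.57 FPKM in OE, and Cryab, a chaperone, was 3.81, 6.75, 10.7 and 6.44 FPKM in Ctrl and 1.79, 2.69, 2.4 and 1.87 FPKM in OE. Mbp lay above and Cryab below every Ctrl library in OE, and neither was called.

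The neuronal genes also varied within the chow-fed groups. Prph was 0.0141, 0.642, 0 and 0.723 FPKM in Flox and 0, 0.118, 1.98 and 0 FPKM in cKO, and Vip was 0.512, 1.25, 0 and 5.23 FPKM in Flox and 0, 0.636, 5.28 and 0 FPKM in cKO. Htr3a was 0.0153, 0.123, 0.0144 and 0.301 FPKM in Flox and 0, 0.0956, 0.451 and 0 FPKM in cKO. For all 3 genes the highest libraries were Flox21 and cKO12, while Flox20, cKO8 and cKO38 were at 0 for Prph and Vip. On HFD, by contrast, all 4 OE libraries had these transcripts and all 4 Ctrl libraries had little or none. The part that neural tissue carried over with the islets played in these differences was not tested.

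The other islet hormones lay inside the wide range of the controls in every OE library. Somatostatin (Sst), the δ-cell hormone, was 3676, 820, 262 and 14860 FPKM in Ctrl and 7737, 7450, 7067 and 5634 FPKM in OE. Pancreatic polypeptide (Ppy) was 2821, 1131, 283 and 16290 FPKM in Ctrl and 7752, 12190, 8900 and 6354 FPKM in OE. For Gcg, Sst and Ppy alike the highest library was Ctrl5 and the lowest were Ctrl2 and Ctrl3, so that OE lay between. Against Ctrl1 and Ctrl5 alone the deposited log2 fold change of Gcg was -0.72, and against Ctrl2 and Ctrl3 alone 3.99. The 8 δ- and PP-cell genes tested had a median of 1.525 as deposited and 1.01 after scaling, beside 0.44 and -0.004 for all genes tested. Of these 8, Sstr3, a somatostatin receptor, and Casr, the calcium-sensing receptor, lay higher in OE without overlap on both scales, as did 3.96% of all genes tested. Their scaled log2 fold changes were 0.95 and 0.99, with no call. Sstr3 was 39.8, 21.1, 4.78 and 42.7 FPKM in Ctrl and 51, 62.3, 58.4 and 62 FPKM in OE. The α-cell list had 0 of 12 genes at an unadjusted p under 0.05 after scaling.

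Genes of β-cell maturity and of insulin secretion lay above the all-gene median in OE, though none was called. Of 31 maturity genes and transcription factors tested, 8 higher and 0 lower reached an unadjusted p under 0.05 after scaling (13.3% and 9.45% of all genes), and the median was 1.07 as deposited and 0.54 after scaling. Hopx, a homeodomain protein, was 28, 13.9, 5.32 and 25.1 FPKM in Ctrl and 39.6, 38, 37.7 and 32 FPKM in OE. Glis3, a transcription factor needed for insulin expression, was 3.26, 1.55, 0.51 and 2.28 FPKM in Ctrl and 4.0, 4.64, 4.26 and 4.24 FPKM in OE. Both had groups that did not overlap, and the adjusted p after scaling was 0.0768 for each by limma. Insm1, an endocrine transcription factor, was 62.3, 26.9, 6.53 and 45.4 FPKM in Ctrl and 55.1, 68.3, 64.9 and 68 FPKM in OE, with Ctrl1 inside the OE range. Ins1 after scaling was 68680, 53240, 20390 and 46400 in Ctrl and 68650, 71560, 65470 and 80510 in OE, lowest in the acinar-rich Ctrl3. Ins2 after scaling was 175200, 166000, 80960 and 123600 in Ctrl and 205400, 192200, 181600 and 207000 in OE. Its groups did not overlap on that scale, with an adjusted p of 0.869 by limma. Among 48 genes of glucose sensing, granules and exocytosis, 20 higher and 0 lower reached that p, and the median was 1.08 as deposited and 0.55 after scaling. Ptprn2, a dense-core granule protein, was 193, 82.7, 27.7 and 169 FPKM in Ctrl and 236, 261, 259 and 251 FPKM in OE. Nsf, the ATPase that takes SNARE complexes apart, was 21.5, 9.4, 3.51 and 19.4 FPKM in Ctrl and 25.9, 23.9, 24.5 and 23.8 FPKM in OE. In both genes OE lay above every Ctrl library, and as deposited by far less above Ctrl1 and Ctrl5 than above Ctrl2 and Ctrl3. After scaling, the log2 fold changes against those pairs, in that order, were 0.74 and 1.02 for Ptprn2 and 0.51 and 0.70 for Nsf. For the exocytosis genes given below they were -0.35 and 0.97 (Snap25), 0.23 and 0.90 (Rab3a) and 0.22 and 0.97 (Vamp2). Scaling therefore did not remove the dependence on the controls.

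A further list of 12 genes gave Vtcn1 as its 1 call. The study also measured those genes in islets by other assays. For Apof these included protein, and for the Stat proteins phosphorylation. Its PCR of the insulin, exocytosis and apoptosis genes compared cKO with Flox islets, not islets of the virus groups. The RNA values below therefore do not test those protein and knockout results. Apof, apolipoprotein F, a minor apolipoprotein that modulates cholesteryl ester transfer, was 0.801, 0.638, 0.183 and 1.82 FPKM in Ctrl and 1.84, 2.35, 2.56 and 2.38 FPKM in OE. All OE values were higher than all Ctrl values, but the lowest OE value, OE1, was close to the highest Ctrl value, Ctrl5. The log2 fold change was 1.16 ± 0.40 (SE) as deposited and 0.87 ± 0.20 (SE) after scaling, with adjusted p-values of 0.591 and 0.0827 by limma, so Apof did not pass the threshold in either. Against the acinar-poor pair of controls it was 0.67 and against the acinar-rich pair 1.65 as deposited, and 0.86 and 0.89 after scaling. In the chow-fed libraries Apof was 0.233, 1.1, 0.697 and 1.31 FPKM in Flox and 0.44, 0.0428, 0.236 and 0.176 FPKM in cKO. Stat5a and Stat5b, the signal transducers of prolactin and growth hormone receptors, had OE values inside the Ctrl range or at its upper edge. Stat5a was 3.5, 1.74, 0.896 and 3.75 FPKM in Ctrl and 3.11, 2.87, 3.56 and 3.87 FPKM in OE, and Stat5b was 8.57, 4.46, 1.83 and 7.83 FPKM in Ctrl and 8.55, 8.24, 8.83 and 8.44 FPKM in OE. Of the exocytosis genes, Snap25 was 79.8, 20.9, 5.08 and 82.8 FPKM in Ctrl and 47.6, 49.1, 54.7 and 62.5 FPKM in OE, Vamp2 107, 39.8, 10.9 and 113 FPKM in Ctrl and 91.8, 114, 104 and 119 FPKM in OE and Rab3a 81.9, 26.8, 8.0 and 64.4 FPKM in Ctrl and 60, 70.2, 69.8 and 87.8 FPKM in OE. Each overlapped as deposited, with Ctrl1 and Ctrl5 within or above the OE range and Ctrl2 and Ctrl3 well below it. The apoptosis genes Bax and Bcl2 had scaled log2 fold changes of -0.0099 and -0.52, with adjusted p-values of 0.968 and 0.189 by limma, and the groups overlapped for both.

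β-cell disallowed genes, which are kept low in mature β cells and are abundant in other tissues, had the lowest median of the lists after scaling, just under that of the acinar regulators. Of 24 tested, 0 higher and 12 lower reached an unadjusted p under 0.05 after scaling (13.3% and 9.45% of all genes), with a median of -0.69 as deposited and -1.15 after scaling, and none was called. Ndrg2 was 3.14, 1.68, 2.68 and 5.68 FPKM in Ctrl and 1.44, 1.85, 1.58 and 1.4 FPKM in OE. Yap1, the effector of the Hippo pathway, was 2.45, 2.17, 2.34 and 3.19 FPKM in Ctrl and 1.25, 1.65, 1.24 and 0.977 FPKM in OE, and Zfp36l1, an RNA-binding protein that destabilises mRNA, was 9.67, 4.21, 7.63 and 12.4 FPKM in Ctrl and 3.56, 4.68, 4.98 and 5.83 FPKM in OE. The groups did not overlap for Yap1 on either scale, and for Ndrg2 and Zfp36l1 they overlapped as deposited but not after scaling. Ldha, lactate dehydrogenase A, was 2.76, 3.43, 4.92 and 5.65 FPKM in Ctrl and 2.14, 1.75, 2.23 and 2.05 FPKM in OE, and every OE value lay below every Ctrl value. The dedifferentiation marker Aldh1a3 was 0.538, 0.0611, 0.164 and 1.15 FPKM in Ctrl and 0.776, 0.84, 0.893 and 0.796 FPKM in OE, with OE inside the Ctrl range. Of 9 dedifferentiation genes tested, 0 higher and 1 lower reached that p. The disallowed genes are expressed by acinar, stromal and immune cells, whose markers were also lower in OE than in some Ctrl libraries, and the part of those cells in the result was not tested.

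After scaling some cholesterol genes lay higher in OE and others lower, with no call. Cells make cholesterol under the control of the transcription factor SREBP2 and export it through ABCA1. Of 24 genes of synthesis and uptake tested, 7 higher and 0 lower reached an unadjusted p under 0.05 after scaling (13.3% and 9.45% of all genes), with a median of 0.51 as deposited and 0.039 after scaling. Srebf2, which encodes SREBP2, was 17.4, 10.1, 4.52 and 18 FPKM in Ctrl and 22.8, 24.5, 23.2 and 24.9 FPKM in OE, and Sqle, squalene epoxidase, was 30.6, 15.3, 6.49 and 30.9 FPKM in Ctrl and 35.4, 31, 35.4 and 34.3 FPKM in OE. For both, the groups did not overlap with or without scaling. Their adjusted p-values after scaling were 0.0768 and 0.0952 by limma, so neither was called. The median of the list lay near that of all genes, and 14 of its fold changes were above 0 and 10 below after scaling. Of 18 genes of efflux and LXR response tested, 5 higher and 4 lower reached that p. Abca1 was 14.6, 5.04, 1.74 and 6.86 FPKM in Ctrl and 16.8, 18.8, 19.7 and 20.9 FPKM in OE, a scaled log2 fold change of 1.18 ± 0.22 (SE) with an adjusted p of 0.0768. The highest Ctrl value of Abca1, in Ctrl1, lay below the lowest OE value. Srebf1 was 0.56 higher on the same scale. Cyp27a1, the mitochondrial sterol 27-hydroxylase that makes an LXR ligand, was in the opposite direction, at 2.36, 1.24, 1.48 and 4.21 FPKM in Ctrl and 0.766, 0.73, 0.634 and 0.674 FPKM in OE, a scaled log2 fold change of -1.49 ± 0.25 (SE) with an adjusted p of 0.0768.

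**Figure D4:**
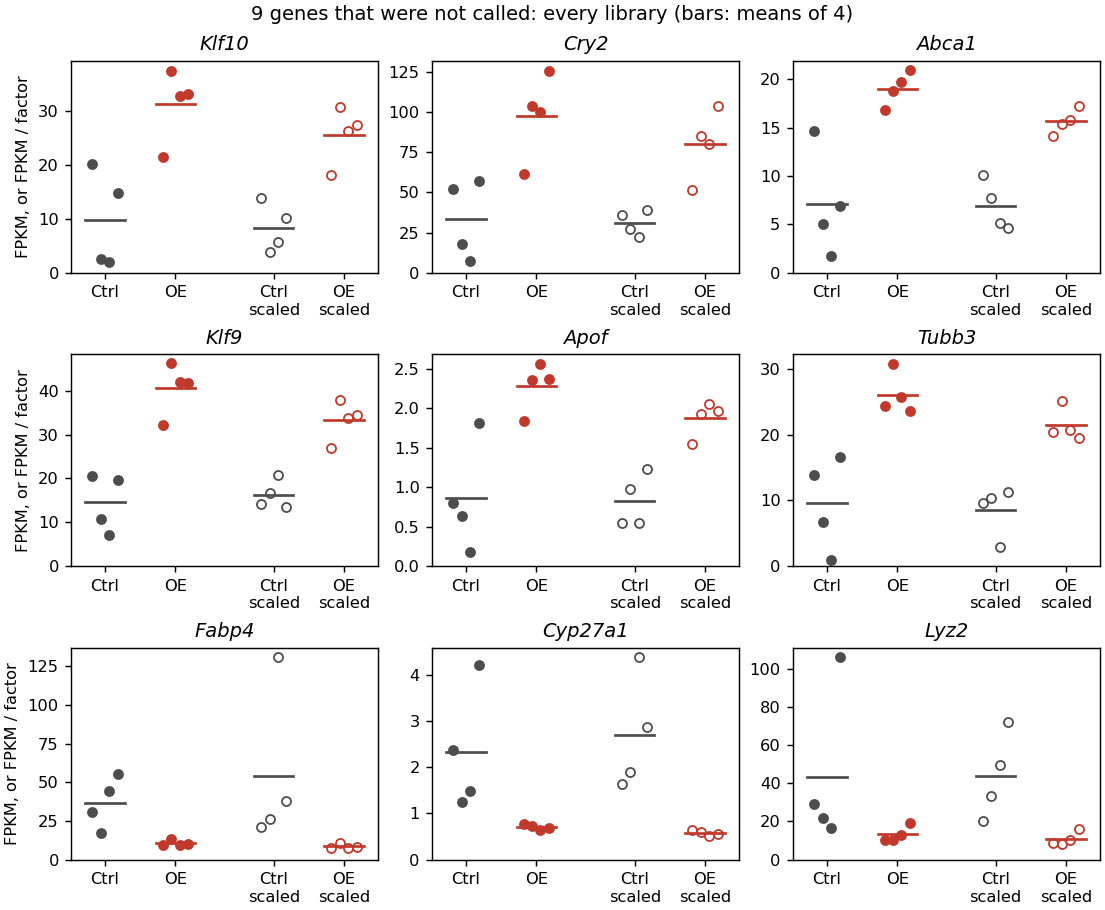
Each panel gives 1 uncalled gene in every library, as deposited FPKM (filled points) and as FPKM divided by the median-of-ratios factor (open points), with bars at group means. Klf10, Cry2, Abca1, Klf9, Apof and Tubb3 are above and Fabp4 and Cyp27a1 below every Ctrl library on both scales, while Lyz2 overlaps as deposited.

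Stat5 signalling and its lactogenic targets showed 1 call after scaling, beside 0.0412% of all genes tested called higher. It was Htr3a, which the list holds because prolactin induces serotonin signalling in islets. Htr3a passed the filter on low values only through its level in OE, and the counts of the list include it. Peripheral neurons also express it, so its call is not particular to Stat5 signalling. Of 27 tested, 7 higher and 0 lower reached an unadjusted p under 0.05 after scaling (13.3% and 9.45% of all genes), and the median was 0.61 as deposited and 0.17 after scaling. Ccnd2, cyclin D2, was 73.4, 32.4, 7.09 and 56 FPKM in Ctrl and 75.5, 78.9, 78 and 77.3 FPKM in OE, and Jak1 was 30.7, 14.6, 7.11 and 24 FPKM in Ctrl and 30.8, 31.9, 30.8 and 31.1 FPKM in OE. In both, OE exceeded Ctrl1 by little and Ctrl2 and Ctrl3 by much. Lipid genes gave no call. Among 22 genes of lipogenesis and carbohydrate response, 6 higher and 1 lower reached that p, with Gpd1 (0.50), Acly (0.83) and Arrdc4 (0.89) higher on the scaled log2 scale and Mlxipl, which encodes ChREBP, at 0.32. Among 26 genes of fatty acid oxidation and PPAR response, 1 higher and 1 lower did. Angptl4, an inhibitor of lipoprotein lipase, was 1.64, 0.359, 0.622 and 0.901 FPKM in Ctrl and 0.151, 0.291, 0.342 and 0.257 FPKM in OE, and the fatty acid transporter Cd36 was 1.67, 1.92, 3.53 and 1.99 FPKM in Ctrl and 1.26, 1.2, 1.2 and 0.837 FPKM in OE. Both were lower in every OE than in every Ctrl library, with no call.

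Circadian clock genes had members with large differences. Of 19 tested, 8 higher and 1 lower reached an unadjusted p under 0.05 after scaling (13.3% and 9.45% of all genes), with a median of 0.79 as deposited and 0.39 after scaling. Cry2, a repressor of the clock, was 52.2, 17.9, 7.46 and 57.2 FPKM in Ctrl and 61.2, 104, 99.95 and 126 FPKM in OE. OE1 was close to Ctrl1 and Ctrl5, and the other OE libraries were well above them. Ciart, another repressor, was 3.6, 1.13, 0.997 and 12.1 FPKM in Ctrl and 8.85, 15.4, 10.9 and 10.2 FPKM in OE, with Ctrl5 inside the OE range, and Bhlhe41 had a scaled log2 fold change of 0.77. Clock itself was 10.4, 4.12, 1.84 and 4.07 FPKM in Ctrl and 7.29, 7.68, 8.63 and 7.58 FPKM in OE, with groups that overlapped. Klf9, which glucocorticoids induce and which also cycles with the clock, was 20.5, 10.8, 7.03 and 19.7 FPKM in Ctrl and 32.1, 46.3, 42 and 41.7 FPKM in OE, and its scaled log2 fold change was 1.02 ± 0.16 (SE) with an adjusted p of 0.073 by limma. Sgk1, a glucocorticoid-induced kinase, was lower, at 10.8, 8.83, 19.1 and 18.2 FPKM in Ctrl and 6.66, 8.62, 6.12 and 5.9 FPKM in OE. The glucocorticoid-induced list as a whole had 3 higher and 2 lower of 17 at that p. Among 33 immediate early genes, 5 higher and 1 lower did. Klf10, a zinc-finger repressor induced by growth factors, was 20.1, 2.53, 1.92 and 14.8 FPKM in Ctrl and 21.5, 37.4, 32.6 and 33.1 FPKM in OE, and Rgs16, a regulator of G-protein signalling, was 32.7, 4.42, 1.29 and 27.9 FPKM in Ctrl and 35.9, 58.7, 48.2 and 43.3 FPKM in OE. Both lay above every Ctrl library, with OE1 near Ctrl1. Fos was 123, 17.4, 20.6 and 156 FPKM in Ctrl and 24.6, 90.2, 88.3 and 162 FPKM in OE, which ranged about as widely within OE as within Ctrl, with OE1 lowest among OE.

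Stromal and myeloid lists had members lower in OE and none called against all 4 controls. Of 36 genes of stellate cells, pericytes and matrix tested, 0 higher and 11 lower reached an unadjusted p under 0.05 after scaling (13.3% and 9.45% of all genes), with a median of -0.46 as deposited and -0.86 after scaling. Col6a1, a collagen VI chain, was 4.79, 3.09, 4.92 and 12.7 FPKM in Ctrl and 2.21, 1.99, 2.98 and 3.41 FPKM in OE, and Mgp, matrix Gla protein, was 106, 30.7, 46.4 and 198 FPKM in Ctrl and 41.7, 54.7, 48.6 and 48.5 FPKM in OE. Ctrl5 was the highest library for both, and Col1a1, the defining stromal marker, was 0.914, 1.18, 1.49 and 7.15 FPKM in Ctrl and 0.721, 1.07, 1.16 and 2.05 FPKM in OE. Of 23 macrophage genes tested, 0 higher and 5 lower did so, with a median of -0.27 as deposited and -0.70 after scaling. Lyz2, lysozyme of myeloid cells, was 29.3, 21.7, 16.8 and 106 FPKM in Ctrl and 10.3, 10.2, 13 and 19.1 FPKM in OE. The defining marker Adgre1 was 3.05, 0.895, 0.324 and 3.96 FPKM in Ctrl and 1.42, 1.08, 1.34 and 1.04 FPKM in OE, with OE between the acinar-rich and the acinar-poor controls. Its deposited log2 fold change was -1.22 against Ctrl1 and Ctrl5 and 0.68 against Ctrl2 and Ctrl3, so the direction depended on the controls. Pecam1, the defining endothelial marker, also turned, at -1.03 and 0.93. Sox18, a transcription factor of endothelium, was 17, 2.99, 4.67 and 16.2 FPKM in Ctrl and 4.87, 3.4, 3.77 and 2.51 FPKM in OE. Of 21 endothelial genes tested, 0 higher and 4 lower reached that p after scaling. The summed share of the stromal list was 0.0285 to 0.211% of FPKM in Ctrl and 0.055 to 0.0713% in OE, and that of the macrophage list 0.0265 to 0.175% and 0.0529 to 0.0576%. The OE values of both lists lay inside the Ctrl range.

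Immune checkpoint and antigen presentation genes gave Vtcn1 as their 1 call. The checkpoint list held genes of the B7 and CD28 families and some outside them, Sirpa and Lgals9 among these. Of 13 tested, 2 higher and 2 lower reached an unadjusted p under 0.05 after scaling (13.3% and 9.45% of all genes). The higher ones were Vtcn1 and Sirpa, and the lower ones Lgals9 and Icosl. Sirpa, the receptor for the CD47 signal, was 27.6, 10.4, 2.67 and 17.4 FPKM in Ctrl and 25.2, 25.9, 25.6 and 23.7 FPKM in OE, and Lgals9, a ligand of the checkpoint receptor TIM-3, was 5.92, 10.7, 7.11 and 23.6 FPKM in Ctrl and 6.73, 4.65, 7.21 and 6.69 FPKM in OE. The 21 genes of MHC presentation tested gave 0 higher and 0 lower at that p. The class I gene H2-K1 was 205, 117, 55.1 and 511 FPKM in Ctrl and 193, 207, 243 and 331 FPKM in OE, highest in Ctrl5. Among 31 interferon-stimulated genes 1 higher and 2 lower did so, and Ifitm3, which restricts viral entry, was 32.6, 27.1, 36 and 109.7 FPKM in Ctrl and 22.5, 16.6, 20.6 and 28 FPKM in OE. Among 24 cytokines, chemokines and their receptors, 1 higher and 4 lower did so. Ccl6, a chemokine of myeloid cells, was 0.991, 0.889, 0.549 and 2.7 FPKM in Ctrl and 0.379, 0.264, 0.34 and 0.602 FPKM in OE, and Il6ra, the interleukin-6 receptor, was 24.9, 12.4, 3.74 and 19.1 FPKM in Ctrl and 31, 29.4, 32.7 and 33.8 FPKM in OE. Cd79a, a B-cell receptor component, was 4.7, 2.67, 0.853 and 2.93 FPKM in Ctrl and 7.84, 9.13, 9.07 and 6.67 FPKM in OE, higher in every OE library, while its partner Cd79b was at most 0.995 FPKM and the B-cell gene Ms4a1 at most 0.047 FPKM.

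Exocrine genes spread the controls far apart, with OE in between. None of 33 acinar genes and none of 19 acinar regulators reached an unadjusted p under 0.05 in either fit. Cpa1 was 2404, 29480, 38330 and 897 FPKM in Ctrl and 6877, 5472, 5839 and 5190 FPKM in OE, a deposited log2 fold change of 1.98 against Ctrl1 and Ctrl5 alone and -2.53 against Ctrl2 and Ctrl3 alone. Ptf1a, the acinar transcription factor and one of the regulators, was 1.28, 9.61, 12.5 and 0.696 FPKM in Ctrl and 2.49, 1.93, 2.16 and 0.783 FPKM in OE. Krt19, the defining duct marker, was 0.933, 5.24, 7.4 and 0.667 FPKM in Ctrl and 3.1, 1.3, 1.74 and 1.42 FPKM in OE, highest in the acinar-rich controls and lowest in the acinar-poor ones. Car2, a carbonic anhydrase of duct cells, was lower in every OE library, at 1.11, 0.64, 0.877 and 0.898 FPKM in Ctrl and 0.25, 0.0748, 0.125 and 0.281 FPKM in OE, and Cldn4, a tight-junction claudin, was higher, at 28.1, 14.6, 4.03 and 32.2 FPKM in Ctrl and 40.4, 38.4, 37.5 and 37.8 FPKM in OE. Reg3b, a lectin induced by pancreatic stress, was 0.402, 13, 66.9 and 0.599 FPKM in Ctrl and 13.4, 1.69, 21.9 and 62.9 FPKM in OE, and varied widely within both groups.

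Some transcripts of enterocytes were present above trace level in 3 of the 4 OE libraries, and 1 of them, Fabp1, also in Ctrl5. Apoa4, an apolipoprotein of enterocytes, was 0, 0, 0 and 0.021 FPKM in Ctrl and 1.91, 0.105, 1.06 and 2.33 FPKM in OE, or 0, 0, 0 and 1 steps in Ctrl and 111, 6, 65 and 135 in OE. Fabp1, a fatty acid-binding protein of enterocytes and liver, was 0.397, 0, 0 and 1.84 FPKM in Ctrl and 4.09, 0.228, 4.08 and 3.04 FPKM in OE. Fabp2, the intestinal form and a defining marker, was listed at 0 in all 4 Ctrl libraries and in OE2, at 0.446, 0, 0.927 and 1.19 FPKM over OE. For these genes OE2 was near the controls, except Ctrl5 for Fabp1, and stood apart from the other OE libraries. Of 30 listed genes 11 passed the filter, some of them, such as Apoa4, only through their level in OE, and none was called. Over all 30, 5 had every OE value above every Ctrl value with and without scaling and 0 the reverse, beside 3.52% and 0.716% of all genes in the table. Villin (Vil1), the remaining defining marker, was 32.7, 17.3, 3.36 and 27.6 FPKM in Ctrl and 39.1, 36, 36.8 and 30.7 FPKM in OE, and Mttp, the microsomal triglyceride transfer protein, was 3.31, 1.01, 0.32 and 2.41 FPKM in Ctrl and 4.07, 3.25, 3.43 and 3.57 FPKM in OE. The groups overlapped for both as deposited, and both transcripts were present in every library. The summed share of the list, in which acinar-rich libraries were highest, was 0.0682 to 2.13% in Ctrl and 0.31 to 0.384% in OE.

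Stress, proliferation and housekeeping lists gave no call. Of 34 genes of the unfolded protein response tested, 4 higher and 0 lower reached an unadjusted p under 0.05 after scaling (13.3% and 9.45% of all genes), with Wfs1 (0.83) and Ern1 (0.67) higher and the chaperone Hspa5 at 0.21 on the scaled log2 scale. Of 32 cell cycle genes, 4 higher and 0 lower did. Cdkn2b, an inhibitor of CDK4, was 3.96, 1.79, 0.684 and 3.34 FPKM in Ctrl and 4.69, 6.3, 5.04 and 5.88 FPKM in OE, and the proliferation marker Mki67 was 1.57, 0.227, 0.137 and 2.03 FPKM in Ctrl and 1.09, 0.399, 0.716 and 0.898 FPKM in OE. Cdkn2b exceeded every Ctrl library, and Mki67 lay inside the Ctrl range. Of 22 apoptosis genes 1 higher and 5 lower did so, of 21 heat shock genes 2 higher and 2 lower, of 25 antioxidant genes 6 higher and 4 lower, of 78 oxidative phosphorylation genes 2 higher and 6 lower and of 79 ribosomal protein genes 0 higher and 6 lower. Hspa1a, the inducible heat shock protein, was 183, 33.3, 28.4 and 340.2 FPKM in Ctrl and 24.5, 81.2, 76.6 and 123 FPKM in OE. The extracellular superoxide dismutase Sod3 had a scaled log2 fold change of -1.29, Gclm, of glutathione synthesis, 0.32, the complex II subunit Sdha 0.44 and the ribosomal protein gene Rpl35 -1.17. For the adipocyte list 6 genes were tested and 0 higher and 3 lower reached that p, while adiponectin (Adipoq), the defining marker, was at most 0.114 FPKM in any library.

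**Figure D5:**
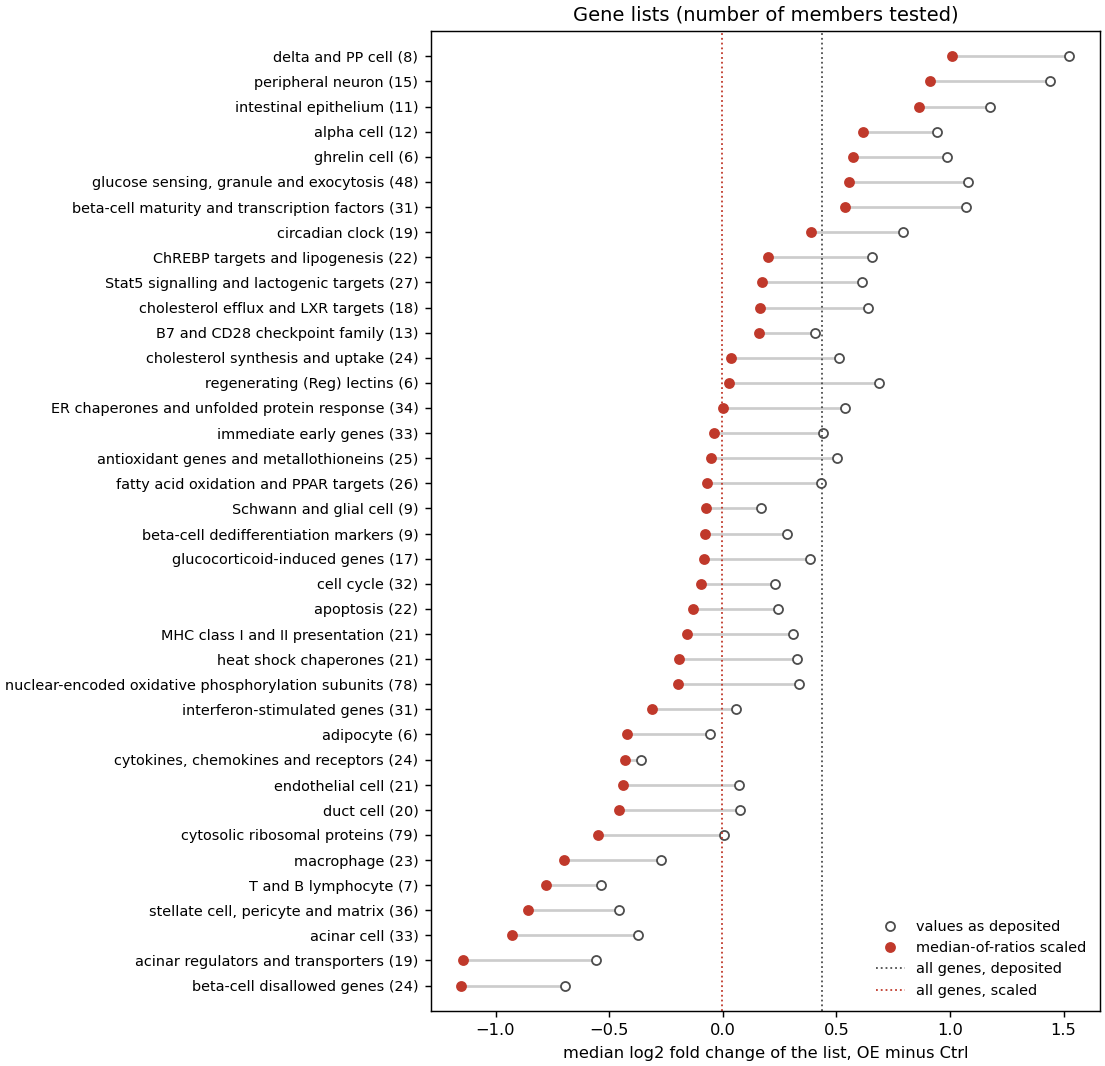
Each row is a gene list with the number of members tested, and points give its median log2 fold change of OE minus Ctrl (horizontal axis) as deposited (open) and after scaling (red); dotted lines mark the medians of all genes tested, 0.44 and -0.004. Neuronal, δ- and PP-cell, secretion and maturity lists lie to the right of the lines and disallowed, acinar and stromal lists to the left.

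Genes with the smallest p after scaling, among those with a mean of at least 1 FPKM and no overlap on either scale, were spread over many functions. Beyond the genes already named, the higher ones were the magnesium transporter Slc41a3 (1.27), the synaptic vesicle gene Syngr3 (1.19), the GTPase Arf3 (0.67), the repressor Zbtb7a (0.68), the flippase Atp9a (0.65), the transcription factor Klf11 (1.34), the deubiquitinase Usp22 (0.62) and the lysosomal arylsulphatase Arsb (0.78), given as scaled log2 fold changes. Their adjusted p-values ran from 0.0506 to 0.063 by limma. Slc41a3 was 2.23, 1.36, 0.439 and 1.58 FPKM in Ctrl and 5.13, 4.64, 5.31 and 5.58 FPKM in OE, and Klf11 was 14.3, 4.47, 1.85 and 14.5 FPKM in Ctrl and 21.5, 27, 25.5 and 25.8 FPKM in OE. In Slc41a3 the lowest OE library was more than 2 times the highest Ctrl library. The lower ones were the chloride channel Ano1 (-1.32), the vitamin E-binding Afm (-1.42), Ggt5 (-1.24), Tcim (-1.77), Fabp4 (-2.19), Taf13 (-1.41), cathepsin C (Ctsc, -1.30), Card10 (-1.26), myoferlin (Myof, -1.04) and Dram1 (-1.11). Their adjusted p-values ran from 0.0554 to 0.102. Tcim was 28.4, 18.9, 22.2 and 26.5 FPKM in Ctrl and 8.16, 11, 10.3 and 10.02 FPKM in OE. Fabp4, the fatty acid-binding protein of adipocytes, capillary endothelium and macrophages, was 30.7, 17.1, 44.2 and 55.3 FPKM in Ctrl and 9.17, 13.3, 9.67 and 10.1 FPKM in OE. For both, every OE value lay below the lowest Ctrl value.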

How the data were processed

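Islet RNA of 16 samples was sequenced, and the authors deposited 2 tables of FPKM, 1 for each diet, with no counts and none of their comparisons. The build named in the submitters' processing notes was mm10; aligner, counter and annotation are not given in the sources used here, and absolute depth is unknown. Groups followed the labels; the fourth control is labelled C5. Genes averaging 0.5 FPKM or more in the 8 HFD libraries (12132 of 17318) were tested on log2(FPKM + 0.5) with limma 3.58.1 in R 4.3.3 (empirical Bayes with trend and robust fitting, two-sided, Benjamini-Hochberg adjustment), as deposited and after median-of-ratios scaling. Called genes had an adjusted p below 0.05 with a log2 fold change beyond 1 in either direction, the cut that the study states. Fold changes on this scale understate changes of low genes. The procedure was checked on simulated data, with a pass mark set only for groups of equal spread after scaling. The Ctrl and OE libraries did not have equal spread, so that check does not vouch for the calls made here. Members and gene lists were chosen with earlier results of these data known. Named were the study's genes, called genes, the genes of smallest p without overlap, and up to 4 members with the smallest p and the defining members of each list; other genes were chosen after their values were seen, and some named by this rule are not reported here. Alternatives were another pseudocount, filter, fold minimum and variance model, library weights, an acinar covariate, a replicate block and libraries left out.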

Additional observations from a re-analysis of the deposited data

Results flagged for a closer look

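In 250 groups of 4 values, a value far from the other 3 by Dixon's test was listed; chance gives about 1 in 20 such groups. In Ctrl, Ctrl1 stood apart for Prph, at 0.135 FPKM against 0 to 0.0132 in the other controls, and for Vip, at 0.147 FPKM against 0 in each of them. Both values are far under those of OE. Ctrl5 stood apart for Apoa4, at 0.021 FPKM against 0, and for the summed share of the lymphocyte list, at 0.00702% of FPKM against 0.000266 to 0.00139%. In OE, OE4 stood apart for Arsb, at 32.0 FPKM against 36.5 to 36.9, for Casr, at 17.2 FPKM against 20.1 to 20.7, for Cd36, at 0.837 FPKM against 1.20 to 1.26, and for Ctsc, at 0.679 FPKM against 0.643 to 0.647. OE2 stood apart for Fabp1, at 0.228 FPKM against 3.04 to 4.09.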

How the results depend on the processing

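The fits without the acinar-rich or the acinar-poor pair of controls were added after the values were seen. Genes called higher and lower on deposited values, 4 and 0, became 10 higher with every gene above a mean of 0 FPKM, 847 and 72 with library weights, 375 and 56 with the acinar mean as a covariate, 81 and 568 without Ctrl2 and Ctrl3, and 7154 and 278 without Ctrl1 and Ctrl5. After scaling, 5 higher and 1 lower became 0 lower with a pseudocount of 1, 9 higher with every gene above a mean of 0 FPKM, 3 and 0 with a minimum mean of 1 FPKM, 28 and 31 with library weights, 51 and 131 with the covariate, 1 and 0 with the 6 libraries of the study's heatmaps, 115 and 304 without Ctrl2 and Ctrl3, and 368 and 865 without Ctrl1 and Ctrl5. Leaving out 1 library gave 4 to 5 higher and 0 lower as deposited. After scaling it gave 3 to 11 higher and 0 to 43 lower, with 10 and 43 without Ctrl2 and 11 and 22 without Ctrl3. Scaling the deposited values gave 5 higher and 1 lower call, and 1435 non-overlapping genes higher and 812 lower. It lowered the median of every list, as it did that of all genes (0.44 to -0.004), and for 9 lists by more than the SD between replicate libraries of the list mean, to -1.15 (disallowed), 0.16 (cholesterol efflux), -0.071 (fatty acid oxidation), -0.46 (duct), -0.081 (glucocorticoid), 0.0018 (unfolded protein response), -0.051 (antioxidant), -0.20 (oxidative phosphorylation) and -0.55 (ribosomal proteins). The mean acinar share in OE, 13.5%, was 3.20% without the 10 most abundant members and 6.22% with 6 genes. The causes of these changes were not tested.

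A replicate block, fitted because the titles number the libraries of both groups alike, gave 4 higher and 0 lower as deposited and 2 higher and 0 lower after scaling. Deviations of same-numbered libraries from their group means correlated by -0.13 to 0.10, as deposited, and not every library correlated best with its own number. With Ctrl libraries so unlike in acinar share, this check cannot exclude a pairing, and none was assumed in the main fits.

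The direction of the deposited log2 fold change turned for some uncalled genes. Over the fits that leave out 1 library it ran from -0.71 to 0.10 for Adgre1, -0.80 to 0.0082 for Col1a1, -1.26 to 0.54 for Cpa1, -0.95 to 0.24 for Hspa1a, -0.81 to 0.11 for Krt19, -0.32 to 0.34 for Mki67 and -0.53 to 0.35 for Pecam1. Without Ctrl2 and Ctrl3 it turned to -0.36 for Bax, -0.027 for Rab3a, -0.61 for Snap25, -0.041 for Vamp2, -0.10 for Stat5a, -0.095 for Sst, -0.72 for Gcg, -0.13 for Mlxipl, 1.98 for Cpa1, 0.61 for Ptf1a, 0.83 for Krt19, -0.44 for H2-K1, -0.88 for Fos and -0.87 for Mki67. Without Ctrl1 and Ctrl5 it turned to -1.07 for Reg3b, 0.93 for Pecam1, 0.35 for Mgp, 0.68 for Adgre1 and 1.08 for Hspa1a. With a pseudocount of 1 it turned to -0.046 for Mki67. With library weights it turned to 0.76 for Pecam1, 0.082 for Mgp and 0.25 for Hspa1a. With the acinar covariate it turned to 0.088 for Cpa1 and -0.13 for Mki67. With the 6 libraries of the heatmaps it turned to -0.19 for Reg3b, 0.29 for Pecam1 and 0.042 for Adgre1. After scaling it turned to -0.0099 for Bax, -0.0024 for Fos and -0.14 for Mki67. None of these genes was called in either fit to all 8 libraries. Of the deposited fold changes of named genes, Vip lost its call without the trend and robust options (adjusted p 0.102 by limma), while 49 uncalled ones passed the threshold with the covariate, 50 with library weights, 30 without Ctrl2 and Ctrl3 and 73 without Ctrl1 and Ctrl5. Depth limits the low genes, since the steps of Vip, Prph and Htr3a in Ctrl ran from 0 to 9.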

Other observations

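T-cell transcripts were highest in 1 control. Cd3e, a chain of the T-cell receptor complex, was 0.0925, 0.0203, 0.0897 and 2.87 FPKM in Ctrl and 0.0783, 0.0398, 0 and 0.295 FPKM in OE. Cd8a, the coreceptor of cytotoxic T cells, was 0.0974, 0.0474, 0 and 2.12 FPKM in Ctrl and 0.00916, 0.0931, 0.13 and 0.175 FPKM in OE, and Nkg7, a granule protein of cytotoxic lymphocytes, was 0, 0.292, 0.162 and 6.33 FPKM in Ctrl and 0.0353, 0.0717, 0.50 and 0.532 FPKM in OE. Ctrl5 was the highest library for each. The plasma-cell gene Jchain was 0.0967, 0.268, 0.266 and 6.84 FPKM in Ctrl and 0.123, 0.222, 0.555 and 1.39 FPKM in OE, highest in Ctrl5 and next in OE4. Cd79a, of the same list, went the other way and was higher in every OE library, at 4.7, 2.67, 0.853 and 2.93 FPKM in Ctrl and 7.84, 9.13, 9.07 and 6.67 FPKM in OE. Of 21 listed genes 7 passed the filter and 1 higher and 2 lower reached an unadjusted p under 0.05 after scaling; none was called. These genes were chosen after their values were seen.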
